A study of Mus musculus with 6 samples.

Results

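Measured were 10 glucocorticoid-responsive genes, *Fkbp5*, *Tsc22d3*, *Mt1*, *Mt2*, *Zbtb16*, *Sgk1*, *Klf9*, *Cdkn1a*, *Nr3c1* and *Lcn2*, in hearts of mice with and without functional *Trdn-as* (WT and KO). They were taken by gene symbol from a table of 21776 genes, and all 10 were found there. KO mice were homozygous for a polyA cassette in exon 1 of *Trdn-as*, a long non-coding RNA antisense to the triadin gene *Trdn*. The cassette was placed by Cas9 in embryonic stem cells, so that it is carried by every cell type and not by cardiomyocytes alone, and the chimeric mice were backcrossed to C57BL/6. WT hearts carried no cassette. No treatment was given in the labels, which also state no age beyond adult, and sex was not considered in the study design. RNA of 3 KO and 3 WT hearts was sequenced, 1 library per heart, as stranded total RNA, and the whole heart was the labelled tissue.

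Glucocorticoids, corticosterone in mice, are adrenal steroids released in a daily rhythm and under stress. They bind the glucocorticoid receptor, which is held ready by the HSP90 chaperone machinery, enters the nucleus upon binding and attaches to palindromic DNA elements near its target genes. In the heart the receptor is active in cardiomyocytes as well as in fibroblasts, endothelial cells and leukocytes, and it is known to be required for normal contraction and calcium handling. *Fkbp5*, *Tsc22d3*, *Zbtb16*, *Klf9*, *Sgk1* and *Per1* are used in many tissues as readouts of receptor activity.

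The promoters of these genes show which of them carry the letters of the receptor's element close to a start site. RefSeq windows on GRCm38.p6, from 250 bases before to 50 bases after a start site, were searched for 8 of the 10 genes, with 16 windows in all. No window of *Nr3c1* or *Zbtb16* was searched, so the counts below say nothing about the promoters of these genes. The full palindrome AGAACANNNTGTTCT, searched on both strands, was present in 3 of 32851 windows of that length (0.00913%), and 1 of these 3 belonged to *Sgk1*, the gene of a kinase that controls ion channels and transporters. The *Sgk1* window is shown because it alone among the 16 held the full element, which is capitalised and starts 189 bases before the start site. It lies at chr10:21993640-21993939 on the plus strand, at one of 6 start sites that RefSeq gives for the gene.

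*Sgk1* promoter: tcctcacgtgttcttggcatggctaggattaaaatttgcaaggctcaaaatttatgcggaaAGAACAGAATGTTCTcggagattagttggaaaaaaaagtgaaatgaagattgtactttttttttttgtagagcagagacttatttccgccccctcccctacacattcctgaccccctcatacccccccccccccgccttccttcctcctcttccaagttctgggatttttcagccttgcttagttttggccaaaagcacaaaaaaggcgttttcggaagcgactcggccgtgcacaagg

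The hexamer AGAACA, which is contained in the palindrome and was searched on both strands, was found in 19.0% of all windows and in windows of 2 of the 8 genes, *Sgk1* and *Tsc22d3*. In *Tsc22d3* it starts 185 bases before the start site of the window chrX:140600473-140600772 on the minus strand. A stretch of this window is shown with the hexamer in capitals, for comparison with the full element of *Sgk1*.

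*Tsc22d3* promoter stretch: ccgcattcgacaTGTTCTaagttctgagac

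*Mt1* and *Mt2* encode metallothioneins, small cysteine-rich proteins that bind zinc and copper, and they are induced by metals through the factor MTF1 as well as by glucocorticoids. Their promoters are shown because both carry several copies of the metal response core, searched as TGCACNC and TGCGCNC on both strands and capitalised below. The *Mt1* window at chr8:94178839-94179138 holds 3 copies and the *Mt2* window at chr8:94172368-94172667 holds 4, both on the plus strand. At least 1 copy was found in 25.7% of all windows, and the only other of the 8 genes with a copy was *Sgk1*. Neither metallothionein window held the palindrome or the hexamer. A match is a description of the letters, and binding was not measured here.

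*Mt1* promoter: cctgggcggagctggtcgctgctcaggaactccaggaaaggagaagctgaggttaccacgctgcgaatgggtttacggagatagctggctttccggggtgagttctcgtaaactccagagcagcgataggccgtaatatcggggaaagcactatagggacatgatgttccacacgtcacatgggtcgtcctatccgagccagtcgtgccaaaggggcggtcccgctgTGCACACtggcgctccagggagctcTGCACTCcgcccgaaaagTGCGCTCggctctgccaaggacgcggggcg

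*Mt2* promoter: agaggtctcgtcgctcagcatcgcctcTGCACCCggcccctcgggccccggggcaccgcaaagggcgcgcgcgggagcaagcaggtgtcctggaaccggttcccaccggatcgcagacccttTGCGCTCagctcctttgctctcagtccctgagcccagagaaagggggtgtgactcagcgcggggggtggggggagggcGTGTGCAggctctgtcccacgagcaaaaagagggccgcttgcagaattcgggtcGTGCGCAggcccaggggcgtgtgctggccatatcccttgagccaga

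The values of the deposited table are read counts per gene, divided by the size factor of the library and rounded. They summed to between 3.13 and 3.25 M per heart, and the counted reads behind them, inferred from the gaps between possible values, were 2.59 to 3.62 M. A count of 3 reads, taken as the limit below which a gene cannot be told from 0, corresponded to values of 2.61 to 3.77. *Trdn-as* had values of 690, 773 and 688 in WT hearts and of 1, 0 and 1 in KO hearts. Cardiomyocyte genes were abundant in every heart, with a summed value of 5 markers of 17260 to 18412 in KO and 18060 to 21953 in WT hearts. For those of the 10 genes in which KO replicate 3 was the single lowest or highest heart, the difference between genotypes is also given without it.

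Per exonic kilobase, a scale that allows levels of different genes to be compared, *Klf9* was the most abundant of the 10 genes in WT hearts, at 168 ± 5.64 (SD, n = 3). *Klf9* encodes a Krüppel-like transcription factor that takes part in the feedback of the hormone response. *Nr3c1*, the receptor itself, followed at 144 ± 4.75, then *Zbtb16* at 94.6 ± 1.24, *Mt1* at 81.1 ± 9.46 and *Mt2* at 51.6 ± 8.39 (SD, n = 3). *Tsc22d3* was at 45.8 ± 4.64 and *Sgk1* at 44.3 ± 6.66 (SD, n = 3). *Mt2*, *Tsc22d3* and *Sgk1* did not differ beyond their spread, since the ranges of neighbours in this order overlapped. *Fkbp5* at 7.67 ± 1.22, *Cdkn1a* at 5.72 ± 1.55 and *Lcn2* at 2.41 ± 1.23 were the lowest (SD, n = 3). All other neighbours had separate ranges. The lengths are the union of all exons in GENCODE M21, which for *Mt1* covers the whole gene, so that levels of genes with many or long annotated transcripts are understated. In a bulk sample, fewer cells that express a gene and less of its RNA per cell cannot be told apart.

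The comparison of KO with WT asked whether loss of *Trdn-as* was accompanied by a change in glucocorticoid-responsive genes. Of the 10 genes, 9 reached a mean of 10 and entered the test, and 0 had an adjusted p under 0.05 (limma, corrected over 13753 genes), against 4 of all genes tested or 0.0291%. At an unadjusted p under 0.05 there was 1 of 9, *Mt2*, against 5.74% of all genes. Limma-voom gave the same counts, 0 and 1. The count at an unadjusted p under 0.05 (limma) was 3 without KO replicate 1. It was 0 with the replicate number as a block and 0 without the mean-variance trend. Leaving out KO replicate 2, WT replicate 2 or WT replicate 3 also gave 0. KO and WT values overlapped for all 10 genes, where 9.07% of all tested genes had separate groups. Of the 9 genes, 4 were fitted higher and 5 lower in KO. The median log2 fold change was -0.02 beside 0.00 over all genes. The fitted log2 difference, KO minus WT, is written log2FC and given ± its SE.

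**Figure D1:**
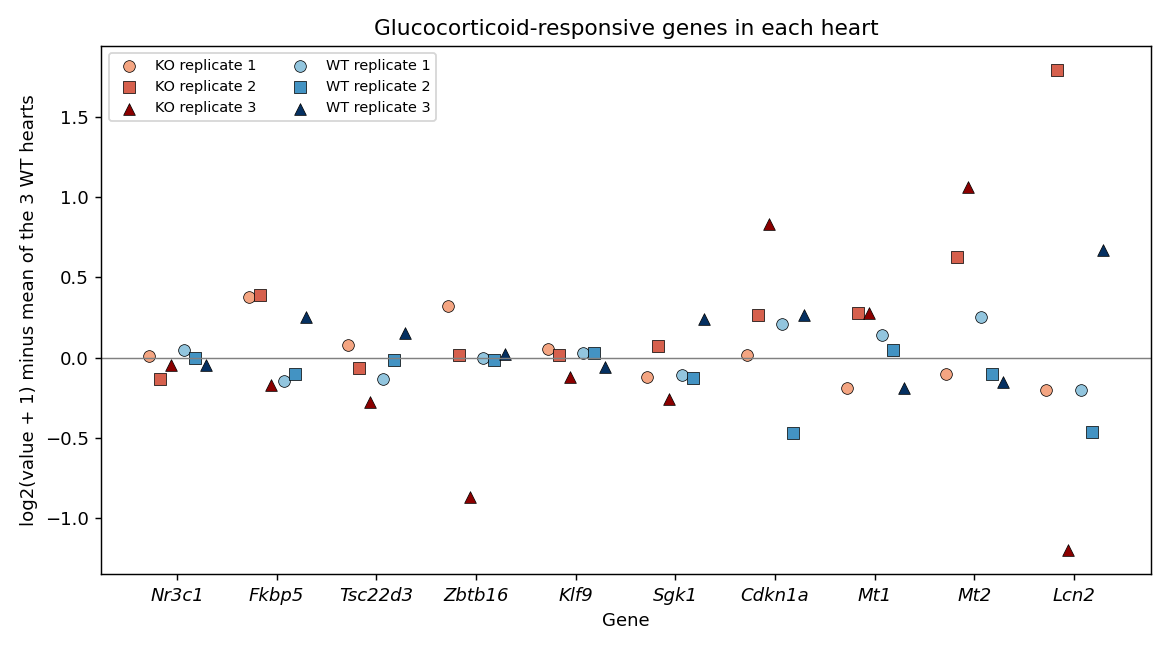
Values of the 10 genes in each heart, as log2(value + 1) minus the mean of the 3 WT hearts (vertical axis), with KO hearts in red and WT hearts in blue and 1 symbol per replicate number. KO replicate 3 (dark red triangles) is lowest for *Zbtb16*, *Fkbp5*, *Tsc22d3*, *Klf9*, *Sgk1* and *Lcn2* and highest for *Mt2* and *Cdkn1a*, and KO replicate 2 is highest for *Lcn2*.

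*Nr3c1* (chr18:39410545-39490674, minus strand, GRCm38) encodes the glucocorticoid receptor. KO hearts had 1118, 1013 and 1075 normalised reads, compared with 1147, 1109 and 1074 in WT. The 6 hearts lay within a 1.13-fold range, and the groups overlapped. The log2FC was -0.06 ± 0.06 (limma, adjusted p = 0.944), and its 95% interval allowed a KO level of 0.885 to 1.05 times WT. Leaving out single hearts gave log2FC between -0.09 and -0.02. Together with *Klf9*, the receptor had the smallest SE of the 10 genes.

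*Fkbp5* (chr17:28399095-28517524, minus strand) encodes a co-chaperone that lowers the hormone affinity of the receptor and is induced by it, which closes a short feedback loop. It had 94, 95 and 64 normalised reads in KO against 65, 67 and 86 in WT. KO replicates 1 and 2 were the highest of the 6 hearts and KO replicate 3 was the lowest, so that the groups overlapped through KO replicate 3 alone. The log2FC was 0.20 ± 0.16 (limma, adjusted p = 0.915). Leaving out KO replicate 3, chosen after its values were seen, gave a log2FC of 0.39 ± 0.16 (limma, unadjusted p = 0.0260, adjusted p = 0.999). Since this heart alone made the groups overlap, their separation without it was fixed in advance. Without KO replicate 2 the log2FC was 0.10.

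*Tsc22d3* (chrX:140539528-140600659, minus strand) encodes GILZ, a leucine zipper protein that carries part of the anti-inflammatory action of glucocorticoids. Values were 209, 189 and 163 in KO, compared with 180, 196 and 220 in WT. The lowest value belonged to KO replicate 3 and the highest to WT replicate 3. The log2FC was -0.09 ± 0.10 (limma, adjusted p = 0.948), and it was 0.01 without KO replicate 3.

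*Zbtb16* (chr9:48654297-48836222, minus strand) encodes the zinc finger factor PLZF, one of the targets most strongly induced by the receptor in many tissues. It had 499, 494 and 507 normalised reads in WT hearts, on average 500 ± 6.56 (SD, n = 3). In KO hearts it had 624, 506 and 273, on average 468 ± 179 (SD, n = 3). The 3 WT hearts were almost equal, whereas the KO hearts held both the highest and the lowest value of the 6. The SD of the log2 values was 0.019 among WT hearts and 0.618 among KO hearts. Among the 3164 tested genes whose mean lay between 0.5 and 2 times that of *Zbtb16*, the median SD was 0.076 in WT and 0.071 in KO, and 99.9% had a smaller SD than *Zbtb16* in KO. The log2FC was -0.18 ± 0.17 (limma, adjusted p = 0.934). It was 0.17 (SE 0.09) without KO replicate 3 and -0.43 (SE 0.14) without KO replicate 1, with adjusted p of 0.999 and 0.361 (limma), so that the direction depended on which KO heart was left out.

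*Klf9* (chr19:23141226-23166911, plus strand) had values of 839, 816 and 743 in KO, compared with 825, 823 and 777 in WT. KO replicate 3 was again the lowest, but the 6 hearts spanned only a 1.13-fold range. The log2FC was -0.02 ± 0.06 (limma, adjusted p = 0.987). The interval of the KO level was 0.903 to 1.08 times WT. Leaving out KO replicate 3 gave 0.03, and under total scaling and under limma-voom the fitted difference was 0.01.

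*Sgk1* (chr10:21882184-21999903, plus strand), whose promoter holds the full palindrome shown above, had 198, 227 and 180 normalised reads in KO against 200, 197 and 255 in WT. The highest value came from WT replicate 3 and the lowest from KO replicate 3. The log2FC was -0.10 ± 0.11 (limma, adjusted p = 0.944), and it was -0.03 without KO replicate 3 and 0.02 without WT replicate 3. A count per gene cannot separate the start sites of *Sgk1*, of which 1 has the palindrome.

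*Cdkn1a* (chr17:29090979-29100722, plus strand) encodes the cell cycle inhibitor p21, a target of p53 as well as of the glucocorticoid receptor. It had 20, 24 and 36 normalised reads in KO against 23, 14 and 24 in WT. KO replicate 3 was the highest and WT replicate 2 the lowest, and the other 4 hearts lay between 20 and 24. The log2FC was 0.37 ± 0.27 (limma, adjusted p = 0.905), and leaving out KO replicate 3 gave 0.14, WT replicate 2 gave 0.13 and KO replicate 1 gave 0.55. Of 10 genes of the p53 pathway, all were tested, 6 were fitted higher and 4 lower in KO, and 0 passed an adjusted p of 0.05 (limma), beside 0.0291% of all genes. At an unadjusted p under 0.05 there were 0, beside 5.74%, and 1 of the 10, *Trp53*, had separate groups with KO higher, beside 9.07%.

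*Mt2* (chr8:94172664-94173568, plus strand) had 28, 47 and 64 normalised reads in KO hearts, on average 46.3 ± 18.0, and 36, 28 and 27 in WT hearts, on average 30.3 ± 4.93 (SD, n = 3). KO replicates 2 and 3 were above all WT hearts, whereas KO replicate 1 equalled WT replicate 2. It was 1.53 times as abundant in KO by these means, with a log2FC of 0.53 ± 0.24 and an unadjusted p of 0.0430, or an adjusted p of 0.851 by limma. Its log2 fold change was 0.26 without KO replicate 3 and 0.85 without KO replicate 1, where the adjusted p was 0.151 (limma). Over all alternatives run the adjusted p was 0.151 to 0.999.

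*Mt1* (chr8:94179082-94180327, plus strand), its neighbour on the same strand, had values of 88, 122 and 122 in KO, compared with 111, 104 and 88 in WT. KO replicates 2 and 3, the hearts with the most *Mt2*, also had the most *Mt1*, while KO replicate 1 and WT replicate 3 shared the lowest value. The fitted difference was smaller than for *Mt2*, at a log2FC of 0.12 ± 0.14 and an adjusted p of 0.947 (limma). It was 0.28 without KO replicate 1 and between 0.03 and 0.04 when KO replicate 2, KO replicate 3 or WT replicate 3 was left out. Reads mapping to more than 1 location had been removed, so that reads from any stretch in which both genes are identical are not in these counts. Of 4 further genes of metal handling, 3 were tested and 0 passed an adjusted p of 0.05 (limma), beside 0.0291% of all genes, and 1 had separate groups, beside 9.07%. *Slc30a1*, the zinc exporter induced by MTF1, had 264, 280 and 289 normalised reads in KO against 249, 246 and 234 in WT. Its groups did not overlap, and log2FC was 0.19 ± 0.08 with an unadjusted p of 0.0236, or an adjusted p of 0.851 by limma. *Mtf1* itself had a log2FC of 0.15 ± 0.12, which was 0.05 when WT replicate 1, 0.08 when KO replicate 1 and 0.28 when WT replicate 3 was left out. *Slc39a10*, a zinc importer, lay on the other side with -0.18 ± 0.10, from 144, 145 and 172 in KO against 171, 181 and 169 in WT.

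*Lcn2* (chr2:32384633-32387797, minus strand) encodes lipocalin 2, a secreted protein that sequesters bacterial iron carriers and is induced by glucocorticoids and by inflammatory signals. Values were 5, 23 and 2 in KO, compared with 5, 4 and 10 in WT, below the filter with a mean under 10. KO replicate 2 had the highest value and KO replicate 3, whose value lay under the 3 reads, the lowest. From a fit without the filter log2FC was 0.13 ± 0.55, and it was below 0 when KO replicate 2 (-0.70) or WT replicate 2 (-0.10) was left out. It was 0.80 without KO replicate 3. Its sign depended on which heart was included.

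**Figure D2:**
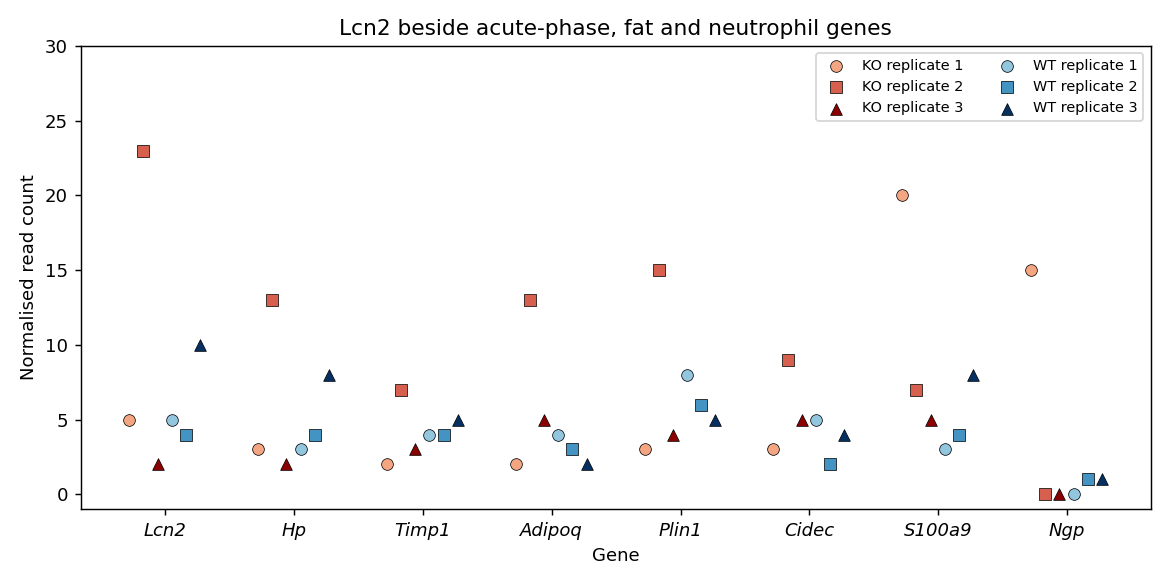
Normalised read counts (vertical axis) of *Lcn2* and of acute-phase genes (*Hp*, *Timp1*), fat cell genes (*Adipoq*, *Plin1*, *Cidec*) and neutrophil genes (*S100a9*, *Ngp*) in the 6 hearts, 1 point per heart. KO replicate 2 is highest for *Lcn2* at 23, *Hp* at 13, *Timp1* at 7, *Adipoq* at 13, *Plin1* at 15 and *Cidec* at 9. *S100a9* and *Ngp* are highest in KO replicate 1. *Csf3r*, a neutrophil gene not shown, was highest in WT replicate 2, at 15.

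Some other low genes were also highest in KO replicate 2, and they were singled out after their values were seen. *Hp*, the gene of the acute-phase protein haptoglobin, had 13 normalised reads in that heart and 2 to 8 in the other 5. *Timp1*, also of the acute-phase list, had 7 there and 2 to 5 in the others. The 2 tested genes of the acute-phase list did not follow, since *Socs3* had 31 in KO replicate 2 and 20 to 41 in the other hearts and *Stat3* had 625 there and 554 to 685 in the others. *Adipoq* and *Plin1*, defining genes of fat cells, had 13 and 15 in KO replicate 2, and 2 to 5 and 3 to 8 in the other 5 hearts. *Cidec*, also of the fat cell list, had 9 in KO replicate 2 and 2 to 5 in the others. *Fabp4*, the most abundant gene of the same list of 4, did not follow them, with 280 in KO replicate 2 and 269 to 306 in the other hearts. Neutrophils, a known source of lipocalin 2, had a summed value of 7 marker genes of 19 in KO replicate 2, against 66 in KO replicate 1, 13 in KO replicate 3 and 10 to 24 in WT hearts. Their part in the *Lcn2* value was not tested.

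**Figure D3:**
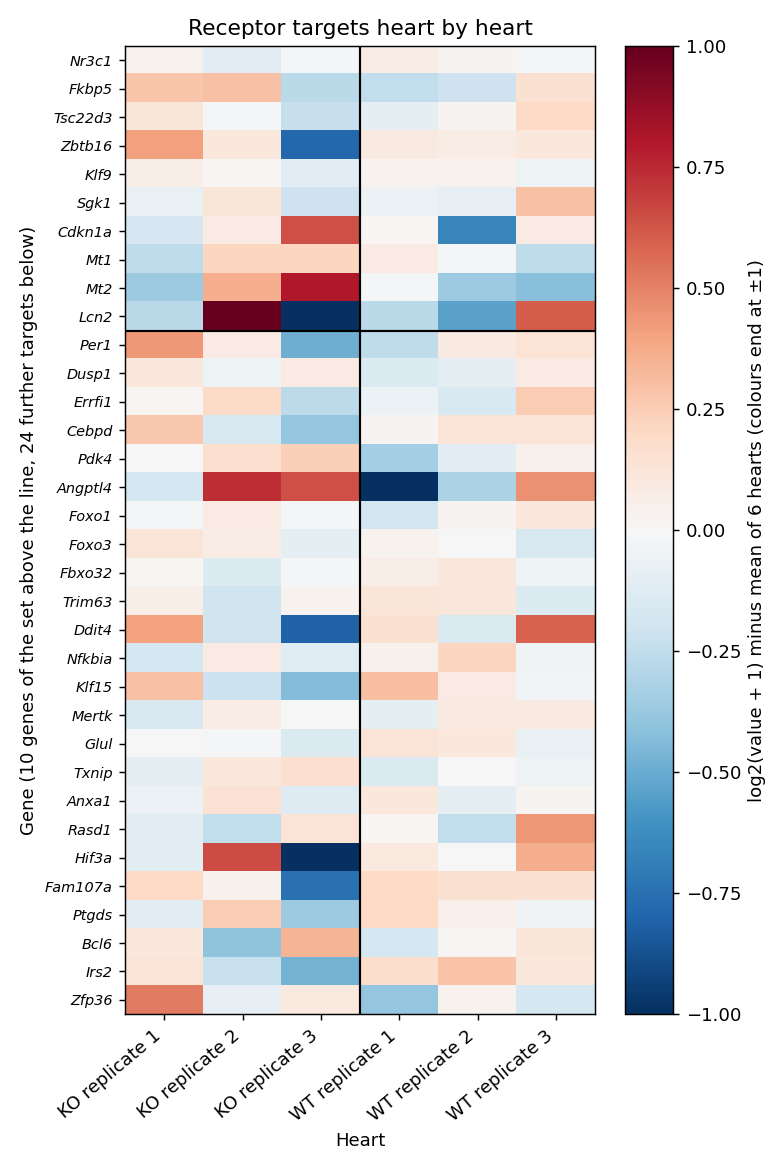
Difference of log2(value + 1) from the mean of the 6 hearts, in colour from -1 (blue) to 1 (red), for the 10 genes above the line and 24 further receptor targets below it, with 1 column per heart. The column of KO replicate 3 holds the lowest value of 17 of these 34 genes and the highest of 5.

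Heart by heart, KO replicate 3 held the single lowest value for 6 of the 10 genes, *Fkbp5*, *Tsc22d3*, *Zbtb16*, *Klf9*, *Sgk1* and *Lcn2*, or 60.0%. Over all 13753 tested genes the same heart was the lowest for 14.7%. For *Zbtb16* it lay 0.94 below the mean of the other 5 hearts on the log2 scale, at 0.519 times their mean value. Of the 7063 tested genes with a mean of at least 100, only 4 lay further below in this heart, and *Trdn-as*, which is lost from all KO hearts, was 1 of them. The corresponding differences were -0.32 for *Fkbp5*, -0.28 for *Tsc22d3*, -0.25 for *Sgk1* and -0.13 for *Klf9*. *Mt2* and *Cdkn1a* went the other way, at 0.96 and 0.78 above the mean of the other hearts. The heart was singled out after its values were seen, and these shares carry no test.

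**Figure D4:**
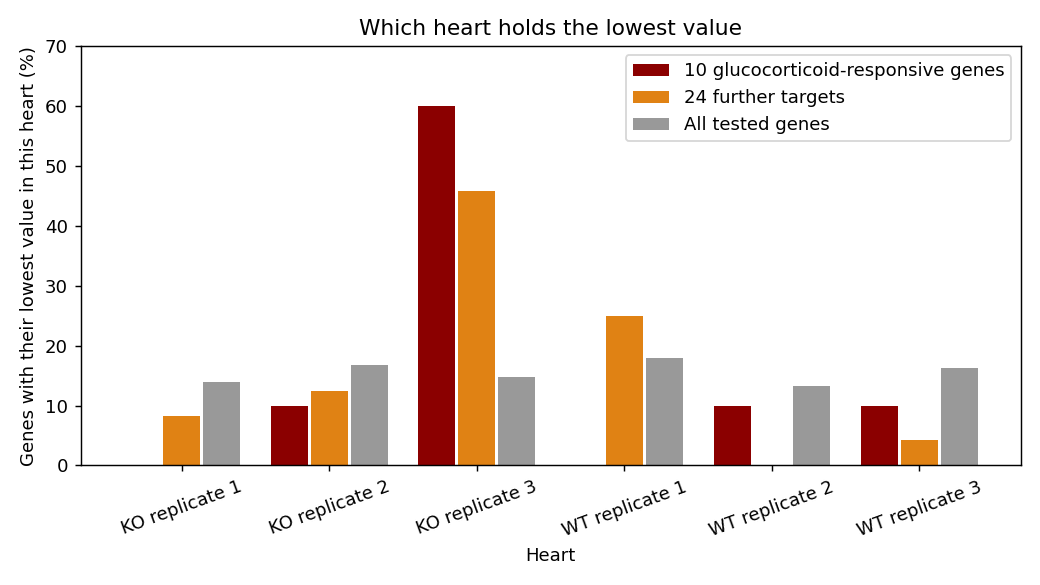
Share of genes, in percent (vertical axis), whose single lowest value came from each heart, for the 10 genes, 24 further receptor targets and all 13753 tested genes. KO replicate 3 holds 60.0% and 45.8% of the lowest values in the 2 lists and 14.7% over all tested genes.

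The same heart was looked at in a list of 24 further receptor targets that shares no gene with the 10. KO replicate 3 was the lowest heart for 11 of the 24 (45.8%), and WT replicate 1, the next, for 6. *Per1*, a clock gene that the receptor induces directly, had 134 normalised reads in KO replicate 3 and 158 to 256 in the other hearts. *Klf15*, a metabolic transcription factor of the heart, had 109 against 127 to 182, and *Hif3a*, a hypoxia factor induced by glucocorticoids, had 6 against 12 to 21. *Pdk4* and *Bcl6*, by contrast, were highest in this heart, at 1998 against 1337 to 1885 and 195 against 116 to 167. Other lists had extremes in other hearts. Of 15 clock genes, 8 were lowest in WT replicate 3 (53.3%, beside 16.3% of all tested genes) and 8 were highest in KO replicate 1 (53.3%, beside 14.9%), while KO replicate 3 was lowest for 2 and highest for 2. *Per1*, *Klf15*, *Hif3a* and *Bcl6* were chosen for naming after their values were seen.

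Between genotypes, 24 of the 24 further targets were tested, 9 were fitted higher and 15 lower in KO, and 0 passed an adjusted p of 0.05 (limma). At an unadjusted p under 0.05 there were 4 of 24, beside 5.74% of all genes (limma-voom 5, with 0 after adjustment). That count (limma) was 6 without KO replicate 1 and 2 without KO replicate 3 or WT replicate 1. It was 1 without the mean-variance trend. Separate groups were found for 0 of the 24, beside 9.07% of all genes. The median log2 fold change of the 24 was -0.06, and it ran from -0.11 to -0.02 when single hearts were left out. *Pdk4*, which restrains glucose oxidation in the fasted heart, had 1682, 1885 and 1998 normalised reads in KO against 1337, 1574 and 1742 in WT. The log2FC was 0.26 ± 0.08 (limma, adjusted p = 0.744). *Angptl4*, an inhibitor of lipoprotein lipase, had 64, 122 and 114 in KO and 28, 58 and 100 in WT hearts, a log2FC of 0.80 ± 0.30 (limma, adjusted p = 0.807). Both genes had overlapping groups, with WT replicate 1 the lowest heart for each. Leaving out that heart gave 0.16 for *Pdk4* and 0.33 for *Angptl4*, while leaving out WT replicate 3 gave 0.35 and 1.23.

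*Irs2*, an adaptor of the insulin receptor, had 143, 112 and 94 normalised reads in KO against 148, 160 and 141 in WT. KO replicate 1 lay among the WT hearts and the other KO hearts lay below them. The log2FC was -0.38 ± 0.13 (limma, adjusted p = 0.772). Without KO replicate 1 it was -0.54 (limma, adjusted p = 0.0701), the smallest that any gene of the 3 lists reached in any alternative. *Zfp36*, which encodes an mRNA decay factor, had 93, 61 and 69 against 49, 66 and 57, a log2FC of 0.36 ± 0.17 (limma, adjusted p = 0.851). The largest fitted differences among the rest were -0.40 (SE 0.27) for *Ddit4*, an inhibitor of mTORC1, and -0.34 (SE 0.26) for *Fam107a*. Without KO replicate 1, *Zfp36* was at 0.19, *Ddit4* at -0.70 and *Fam107a* at -0.52 (limma, adjusted p = 0.832, 0.453 and 0.672). Leaving out KO replicate 3 instead gave -0.09 for *Ddit4*, -0.05 for *Fam107a* and -0.24 for *Irs2*, and *Ddit4* was at -0.20 when WT replicate 3 was left out. *Fam107a* had 28, 27 and 27 normalised reads in WT hearts and 28, 25 and 14 in KO hearts, and the lowest value was that of KO replicate 3.

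**Figure D5:**
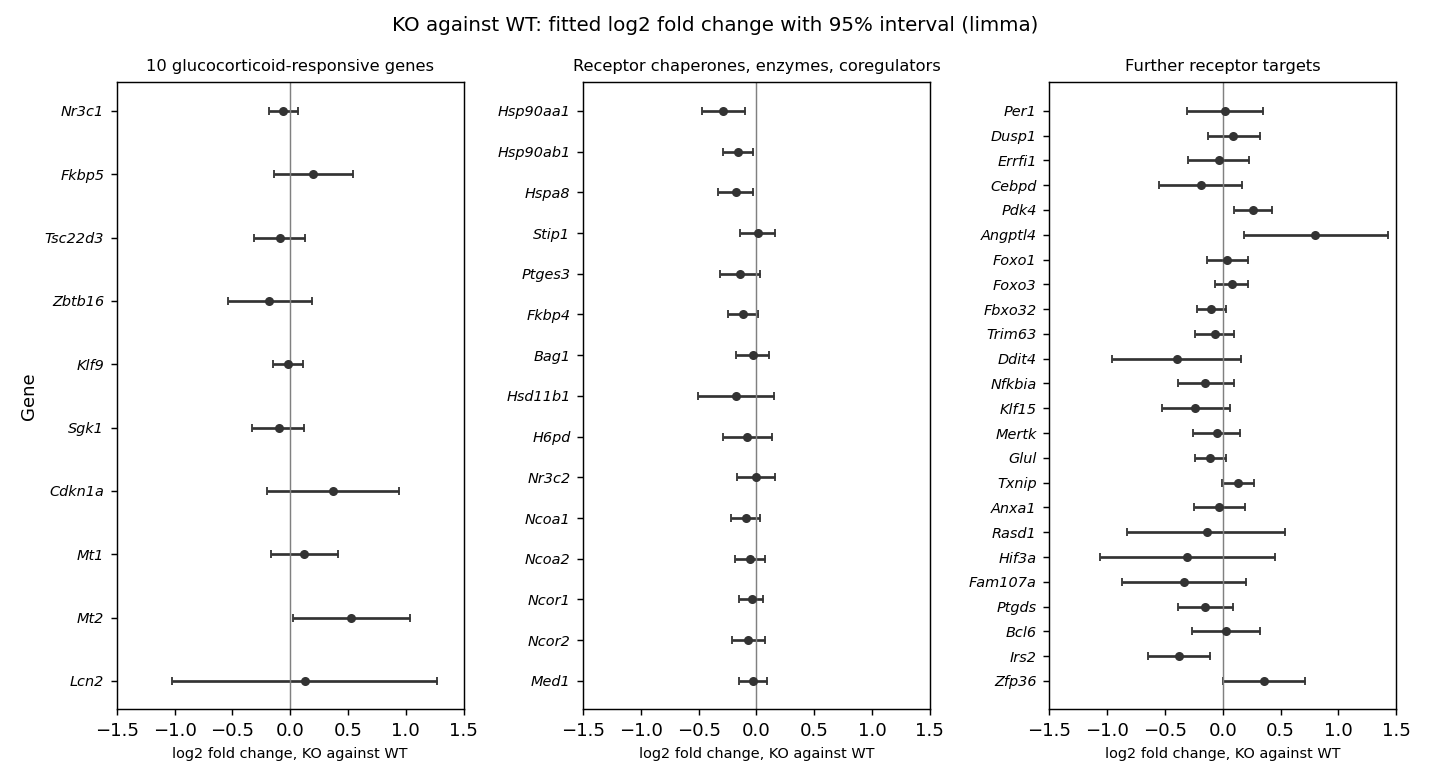
Fitted log2 fold change of KO against WT (horizontal axis) with its 95% interval (limma) for the 10 genes, for 15 genes of the receptor machinery and for 24 further receptor targets. *Lcn2* is from the fit without the filter. The intervals of most genes include 0, 14 of the 15 machinery genes lie at or below 0, and 0 genes passed after adjustment.

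The receptor machinery comprised chaperones, steroid-converting enzymes, the sister receptor *Nr3c2* and coregulators, with 15 of 16 genes in the table and tested. *Hsd11b2* was not analysed here. Of the 15, 1 was fitted higher and 14 lower in KO. The median log2 fold change was -0.08 (median of all genes 0.00). Summed values of the 15 genes were 8873 to 9318 in KO and 9374 to 9909 in WT hearts, without overlap. Such a sum is weighted to abundant genes and does not describe each of the 15. No share over all genes stands beside it. None passed an adjusted p of 0.05 (0 genes, limma and limma-voom). At an unadjusted p under 0.05 there were 3 in either fit, beside 5.74% of all genes. That count fell to 1 (limma) without WT replicate 1 or without the mean-variance trend. Separate groups were found for 4 of 15, beside 9.07% of all genes. *Hsp90aa1*, the inducible HSP90 gene, had 315, 277 and 299 normalised reads in KO against 343, 327 and 422 in WT. All KO values lay below all WT values, with a log2FC of -0.29 ± 0.09 and an unadjusted p of 0.00473, or an adjusted p of 0.762 by limma. Leaving out WT replicate 3, its highest heart, gave -0.17. *Hsp90ab1*, the constitutive HSP90 gene, had 1427, 1396 and 1473 against 1738, 1611 and 1458, with overlapping groups and a log2FC of -0.16 ± 0.06. *Hspa8*, the constitutive HSP70 that hands the receptor to HSP90, had 545, 564 and 576 against 704, 629 and 583, a log2FC of -0.18 ± 0.07. The adjusted p was 0.840 and 0.822 for these genes (limma), and leaving out WT replicate 1, the highest heart for both, gave -0.10 and -0.11.

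*Ptges3*, the gene of the p23 co-chaperone, had 200, 184 and 196 normalised reads in KO against 214, 213 and 213 in WT, with separate groups and a log2FC of -0.14 ± 0.08. *Hsd11b1*, whose enzyme regenerates active corticosterone inside cells, had 60, 49 and 51 against 64, 65 and 53, with overlapping groups and a log2FC of -0.18 ± 0.16. It was between -0.28 and -0.12 when single hearts were left out. KO replicate 2 was the lowest heart for 10 of the 15 machinery genes, beside 16.8% of all tested genes, and WT replicate 1 the highest for 8, beside 20.1%. The 5 cardiomyocyte markers were also fitted lower in KO, with log2 fold changes of -0.16 to -0.15, and WT replicate 1 had their highest sum. Their part in the chaperone values was not tested.

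Since the receptor acts in several cell types and its hormone follows the time of day and handling, lists that mark these were set beside the 10 genes. Summed values in KO and WT hearts were 3357 to 3892 and 3373 to 3847 for 4 endothelial genes, 3262 to 3670 and 3446 to 3674 for 5 fibroblast genes, and 489 to 730 and 581 to 629 for 5 leukocyte genes. They were 630 to 718 and 678 to 704 for 3 smooth muscle genes, 164 to 304 and 151 to 423 for 5 genes of red blood cells, 300 to 317 and 280 to 319 for 4 fat cell genes, and 434 to 620 and 449 to 566 for 4 atrial genes. These ranges overlapped between genotypes in every list. For 9 immediate early genes the sums did not overlap, at 741 to 892 in KO and 626 to 703 in WT hearts. A sum is weighted to abundant genes, here *Jun* (KO 315 to 356, WT 247 to 284) and *Btg2* (KO 173 to 278, WT 172 to 185). Both were named after their values were seen. For 15 clock genes the sums were 4721 to 5013 in KO and 4395 to 4709 in WT hearts, again without overlap. After adjustment 0 genes of either list passed, while 3 of the 8 tested immediate early genes and 5 of the 15 clock genes had an unadjusted p under 0.05 (limma), all of them higher in KO, beside 5.74% of all genes. Of the 8 tested immediate early genes, 6 were fitted higher and 2 lower, and 1 had separate groups, beside 9.07% of all genes. Over the whole clock list 10 genes were fitted higher and 5 lower, and 5 of 15 had separate groups, beside 9.07% of all genes. Of these, *Dbp*, *Hlf*, *Ciart* and *Bhlhe41* had KO higher and *Cry1* had KO lower, and they were named after their values were seen. The part of either list in the values of the 10 genes was not tested, and the hour at which the hearts were taken is not given in the sources used here.

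The 9 genes that passed the filter did not move as one group over the 6 hearts. Correlated with the mean z-score of the other 8 genes, *Fkbp5* had a Pearson r of 0.57, *Zbtb16* of 0.48, *Sgk1* of 0.25, *Klf9* of 0.19 and *Tsc22d3* of 0.16. *Cdkn1a* was at -0.51, *Nr3c1* at -0.56, *Mt1* at -0.61 and *Mt2* at -0.64. The mean z-score of the 9 genes was 0.19, 0.28 and -0.38 in KO replicates 1 to 3, against 0.06, -0.25 and 0.10 in WT replicates 1 to 3. Of 13744 other genes, the 5 whose log2 values were most like this profile over the 6 hearts were *Ubap1*, *Ddc*, *Zcchc14*, Gm31659 and *Rnf215*, with Pearson r of 0.976 to 0.992. *Ddc*, the gene of aromatic amino acid decarboxylase, had 30, 34 and 16 normalised reads in KO against 25, 20 and 27 in WT. With 6 hearts, 67 genes exceeded an r of 0.9, so that these likenesses are descriptions of the same 6 libraries.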

How the data were processed

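RNA of 3 *Trdn-as* KO and 3 WT mouse hearts was sequenced as stranded, single-end libraries of total RNA. Per the submitters' processing notes and methods, the authors trimmed reads with Trimmomatic 0.39, aligned them to GRCm38 (mm10) with STAR 2.6.1d, removed duplicates (Picard 2.21.1) and multi-mapping, ribosomal and mitochondrial reads, counted exons strand-wise with featureCounts 1.6.5 and normalised with DESeq2 1.18.1. The deposited score per gene is this count over the library's size factor, as a whole number, so it is neither a raw count nor per length. Rounding and unknown raw counts limit the precision of low genes.

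Genes with a mean of at least 10 were tested as log2(value + 1) with limma 3.58.1 in R 4.3.3 (eBayes with trend, two-sided, no covariate, Benjamini-Hochberg adjustment over 13753 genes, threshold 0.05). With 3 against 3 hearts an exact permutation test cannot go below 0.1 and was not used. *Lcn2* was fitted without the filter. Read totals were estimated from the spacing of values under 1000. The fit and this estimate were tested on simulated data. For the fit all genes had the same dispersion, so that an uneven spread such as that of *Zbtb16* was not covered. For the estimate no simulated size factor was as near to 1 as that of KO replicate 3 (0.9988). Intervals are at 95%, and the limit of 3 reads covers counting error only. P-values, SEs and intervals rest on the spread between these hearts, with each gene's variance drawn towards that of genes of like level. For genes of unusually large spread, such as *Zbtb16*, the SE is smaller than their own spread would give. Without the mean-variance trend the smallest unadjusted p of the 9 tested genes was 0.116 (limma).

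The 10 genes and all lists were chosen with earlier results of these data known. Named were the 10 genes, and of the receptor machinery and further targets each gene with an unadjusted p under 0.05 and the 2 largest other changes, and the 5 genes most like the mean profile. Genes given a result beyond this rule are said to be so or stand beside a value of the 10. *Nr3c2* and *Hsd11b2* were named only as members of their list. As alternatives, scaling by totals or by median of ratios, limma-voom, a pseudocount of 0.1, a replicate block, no mean-variance trend, a minimum of 10 in each heart, a minimum total of 1 and fits lacking each library in turn were run.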

Additional observations from a re-analysis of the deposited data

How the results depend on the processing

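The count of glucocorticoid-responsive genes past an adjusted p of 0.05 was 0 in all alternatives run (limma), as were the counts of receptor machinery and further target genes. The median log2 fold change of the 9 tested genes lay between -0.05 and 0.04, and it was 0.05 without the filter, where *Lcn2* joined as the tenth gene. Of the single genes, *Klf9* changed sign to 0.01 under limma-voom and to 0.01 under total scaling, which moved the median of all genes from 0.00 to 0.02. Leaving out the libraries in turn, the log2 fold change ran from -0.05 to 0.03 for *Klf9*, from -0.19 to 0.02 for *Sgk1*, from -0.17 to 0.01 for *Tsc22d3*, from -0.43 to 0.17 for *Zbtb16* and from -0.70 to 0.80 for *Lcn2*. *Zbtb16*, *Tsc22d3* and *Klf9* turned positive without KO replicate 3, *Sgk1* without WT replicate 3, and *Lcn2* negative without KO replicate 2 or WT replicate 2. The other 5 genes kept their sign throughout. The cause was not tested. Over all genes the count past the threshold was 4. Leaving out KO replicate 1 gave 32, WT replicate 3 gave 7, and KO replicate 2 or WT replicate 1 gave 2. A minimum of 10 in every heart gave 2 and a fit lacking the mean-variance trend gave 1.

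Hearts of the same replicate number did not deviate together from their group means, with correlations across genes of 0.05, -0.07 and -0.03. A pairing that touches few genes would not show in these values, and the labels do not say how the numbers were assigned. With the replicate number as a block, 0 of the 9 tested genes passed, and the smallest adjusted p among them was 0.833 (limma). Of the receptor machinery and further targets, 0 genes passed with this block. For *Lcn2*, the alternative of at least 10 in every sample gave no value. For the lowest genes depth and spread limited the comparison, with 95% intervals of the log2 fold change from -1.02 to 1.27 for *Lcn2* and from -0.20 to 0.94 for *Cdkn1a*.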
